A study of Mus musculus with 4 samples.

Results

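Gene expression in cardiac endothelium, the cell layer that lines the vessels of the heart, was compared between mice 24 h after an intraperitoneal injection of lipopolysaccharide (LPS) and mice injected with saline. The comparison rested on 2 of the series' 4 arrays, both hybridised with amplified RNA on spotted Operon long oligonucleotides in 2 colours. LPS RNA carried Cy5 and saline RNA carried Cy3 on the first array, and the dyes were exchanged on the second. The labels name the species, the injection, the tissue and the time, but they do not state strain, sex, age, dose, the number of animals or the way the endothelium was isolated. No separate animals or RNA extracts are named for the exchanged array, so both arrays were counted as 1 replicate, which allows no test between LPS and saline, and a limma fit that took them as separate samples is given only as an alternative. All 11138 genes with a single symbol were described, and a gene was called higher or lower where both arrays lay at least 1 log2 unit (2-fold) from 0 on the same side. Pairs of values below are log2 ratios of LPS over saline, on the Cy5 array first and on the dye-reversed array second, after the sign of the second was turned. This direction follows from the labelled dyes and is likely, since nothing in the deposited table states it. With the ratio read the other way, every higher gene would be lower. If the table had already been turned alike, the genes called here would lie on opposite sides of 0.

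LPS, which coats Gram-negative bacteria, is sensed by Toll-like receptor 4, which drives NF-kB and interferon regulatory factors. Endothelium that senses it displays adhesion molecules, releases chemokines and shifts its control of coagulation and vessel tone. Interferons made in response act through STAT proteins on genes whose promoters carry interferon-stimulated response elements or gamma-activated sequences. Heart capillaries also take up fatty acids that lipoprotein lipase frees on their surface, and these serve as the main fuel of the muscle.

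The gene list with the largest share of higher members was that of the interferon-inducible GTPases, so a stretch of promoter is shown for the higher members that were matched in the RefSeq table of GRCm38.p6. Each runs from base -100 to base -21 before the annotated start, 5′ to 3′ on the gene's strand. Capitals mark matches, on either strand, to GAAA, any 2 bases and GAAA (an interferon-stimulated response element) or to TTCNNNGAA (a gamma-activated sequence).
Gbp2 (chr3:142620563-142620642, plus strand): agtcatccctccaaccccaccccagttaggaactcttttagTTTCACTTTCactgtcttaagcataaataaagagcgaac
Igtp (chr11:58199456-58199535, plus strand): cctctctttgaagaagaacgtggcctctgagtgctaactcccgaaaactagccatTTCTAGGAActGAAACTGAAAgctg
Irgm2 (chr11:58214877-58214956, plus strand): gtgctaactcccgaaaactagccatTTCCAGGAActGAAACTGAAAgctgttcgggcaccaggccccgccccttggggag
Tgtp1 (chr11:48992267-48992346, minus strand): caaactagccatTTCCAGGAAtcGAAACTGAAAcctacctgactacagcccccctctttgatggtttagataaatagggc
Ifi47 (chr11:49076487-49076566, plus strand): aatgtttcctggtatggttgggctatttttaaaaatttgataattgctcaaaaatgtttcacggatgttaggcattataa
In Igtp, Irgm2 and Tgtp1 the second kind of letters stood just ahead of the first, while Gbp2 held only the first kind and the stretch of Ifi47 held neither. Gbp8 and Iigp1 were not matched. Over windows of 300 bases, the response element was found in 4 of the 5 matched GTPases and the gamma-activated sequence in 3 of 5. The letters around the matches are nearly the same in Igtp, Irgm2 and Tgtp1, so their matches do not count as separate cases. Of all 32851 promoters, 3.44% and 8.30% held them, and of the 11120 promoters of measured genes 3.16% and 7.1%. For all genes higher at 24 h these shares were 4.62% and 6.81%, and for all genes lower they were 4.84% and 8.07%. A match is a run of letters and not a measured binding site.

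The arrays agreed only in part. Of the 11138 genes, 780 (7.0%) were changed, 388 of them higher (3.48%) and 392 lower (3.52%), while 411 (3.69%) lay at least 2-fold from 0 in opposite directions. At 4-fold on both arrays, or 2 log2 units, there were 56 higher, 52 lower and 37 opposite genes, and at 3 log2 units 13, 5 and 8. A gene's values on the arrays correlated at 0.12 across genes, and the 2 spots of an oligonucleotide within an array at 0.32 on both. Agreement was closer where spots agreed. Among 6159 genes kept because the 2 spots of an oligonucleotide lay within 1 log2 unit of each other on both arrays, 509 were changed and 45 opposite. With every spot of a gene past the threshold, 406 genes remained changed (3.65% of those measured), 208 higher and 198 lower, against 60 opposite. The sign of the second array was turned on evidence from such spots, so this agreement is not independent of the turning. If the second array was rightly turned, a dye effect of a gene has opposite signs on the 2 arrays. Dye effects were not tested. The table holds ratios and no intensities, so weak and strong spots could not be told apart. With 2 arrays the values are of limited precision.

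**Figure D1:**
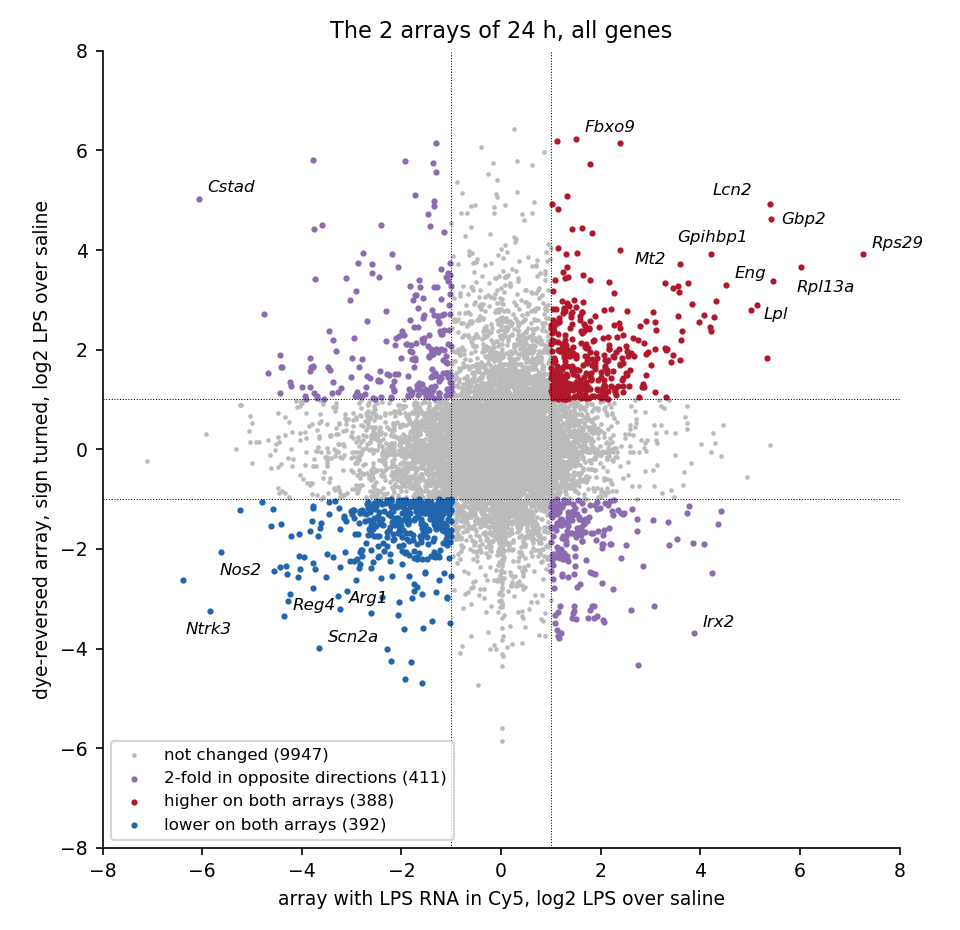
Log2 ratio of LPS over saline on the array with LPS RNA in Cy5 (horizontal axis) against the dye-reversed array with its sign turned (vertical axis), 1 point per gene, 24 h. Dotted lines mark 1 log2 unit; 388 genes lie past it in the upper right, 392 in the lower left and 411 in the other corners, and the cloud of all genes shows little slope.

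The 15 highest genes at 24 h had varied roles. Lcn2, which encodes a protein that withholds siderophore iron from bacteria, stood at 5.41 and 4.93, a mean of 5.17 ± 0.34 (SD of 2 arrays), or 36.0-fold. The guanylate-binding protein gene Gbp2 followed at 5.41 and 4.61. Gpihbp1, the capillary anchor of lipoprotein lipase, was at 4.21 and 3.91, and the metallothionein Mt2, which binds zinc and copper, at 3.60 and 3.73. In all of these both spots of both arrays lay above 3 log2 units. The lysosomal protease gene Ctsl stood at 3.30 and 3.34, and Serinc3, a membrane protein gene, at 3.45 and 3.23. Psmd8, a subunit of the proteasome's regulatory particle, was at 3.83 and 2.92, and Rhoc, a small GTPase of the actin cytoskeleton, at 5.13 and 2.89. The arrays gave like sizes for Ctsl, Mt2 and Serinc3, whereas for Rhoc and for Rps29, a ribosomal protein gene at 7.27 and 3.92, the Cy5 array lay more than 2 log2 units above the other.

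The lowest genes included several that are best known from nerve and immune cells. Scn2a, a neuronal sodium channel, stood at -3.65 and -3.99, and the neurotrophin-3 receptor Ntrk3 at -5.84 and -3.25. Arginase 1 (Arg1), which uses up the substrate of nitric oxide synthases, was at -3.23 and -3.20. Inducible nitric oxide synthase (Nos2) was at -4.55 and -2.44, so that neither enzyme's gene was higher in the LPS RNA at this time. The regenerating family gene Reg4 stood at -4.36 and -3.35, Nfatc2, a calcium-regulated transcription factor, at -4.27 and -3.05, and Sox13 at -4.24 and -2.90. The kinase gene Araf was at -2.61 and -3.28 and the orphan receptor Gpr19 at -2.92 and -2.62. The others of the 15 lowest were Flacc1, Ighmbp2, the DNA polymerase gene Poll, the myristoyltransferase gene Nmt2, the ubiquitin protease gene Usp26 and 1700128F08Rik. Of the 392 lower genes, 267 lay further from 0 on the Cy5 array, compared with 196 of the 388 higher genes.

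**Figure D2:**
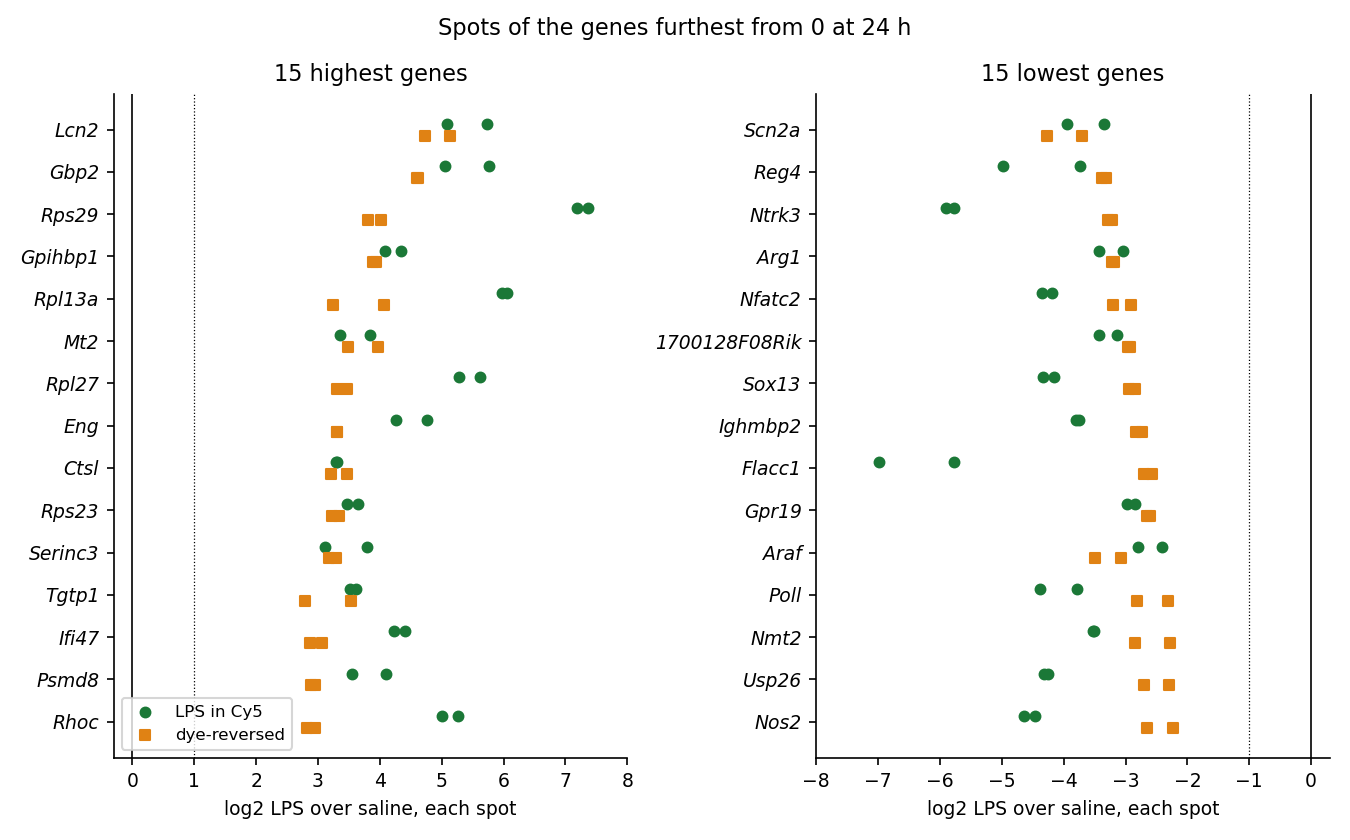
Log2 ratio of every spot (horizontal axis) for the 15 highest and 15 lowest genes at 24 h, chosen among genes with every spot past 1 log2 unit and ordered by the array nearer to 0; circles are spots of the Cy5 array and squares those of the dye-reversed array. Spots of an array lie close together, while the arrays differ in size for genes such as Rps29 and Flacc1.

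Interferon-inducible GTPases, which attack the membranes of vacuoles that hold microbes, were higher in 7 of 12 cases and lower in 0, with a list median of 2.10 against -0.02 over all genes. Besides Gbp2, the immunity-related GTPases Ifi47 at 4.32 and 2.97 and Tgtp1 at 3.57 and 3.17 stood highest, followed by Gbp8 at 3.04 and 2.76. Irgm2 at 2.39 and 2.43, Iigp1 at 2.14 and 1.80 and Igtp at 1.47 and 2.99 completed the higher members. Irgm1, which steers other members of its family, missed the threshold on 1 array at 2.16 and 0.92. Gbp3 was at 0.51 and 1.31 and Gbp2b at 0.01 and -1.83. The antiviral Mx1 was at 1.01 and 0.52 and Mx2 at -0.14 and -0.61. The family was therefore not uniform, with most members of the Irg group above the threshold, the Gbp group divided and the Mx genes short of it. Several of these genes have close copies in the mouse genome, and whether their oligonucleotides also bound the copies was not tested.

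Antiviral effectors and sensors were higher in 5 of 36 cases, Samhd1, Usp18, Ifit2, Ifih1 and Ifi202b, and lower in 1. Samhd1, which depletes nucleotides that viruses need, stood at 1.78 and 1.95. Ifit2, an inhibitor of translation, was at 1.23 and 1.29, and Usp18, a brake on interferon receptor signalling, at 1.57 and 1.60, with 1 spot of Usp18 at 0.33. Ifih1, a sensor of viral RNA, was at 1.21 and 1.47 with spots from -0.40 to 3.34, and Oasl2 was lower at -1.08 and -1.87. Of 29 genes of interferon signalling, the transcription factor Irf7 at 2.05 and 2.24 and Stat2 at 2.16 and 2.02 were higher. Irf2, an antagonist of other interferon regulatory factors, was lower at -2.01 and -1.43, and Irf1 was not changed at 0.20 and 0.59. These 3 changed genes were past the threshold in every spot.

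Genes of LPS sensing and NF-kB were higher in 4 of 44 cases (9.09%) and lower in 1 (2.27%), beside 3.48% and 3.52% over all genes. The receptor Tlr4 itself was at 0.31 and -0.06, its co-receptor Cd14 at -0.03 and -0.70 and its partner Ly96 at 1.37 and -0.16, none of them changed. In 1 Tlr4 oligonucleotide, both Cy5 spots and 1 dye-reversed spot stood where deposited ratios of exactly 1 lie after centring. The LPS-binding protein gene Lbp stood at 2.56 and 1.27, Tnip1, a restraint on NF-kB, at 1.71 and 2.03, the lipopeptide receptor Tlr2 at 2.28 and 1.18 and the kinase adaptor Tab2 at 1.26 and 2.80. The NF-kB inhibitor Tnfaip3 was lower at -2.05 and -1.54 in every spot, and Nfkbia was at 0.02 and -1.29. Both Cy5 spots of Nfkbia and 1 dye-reversed spot stood where deposited ratios of exactly 1 lie after centring. Its other spot was at -2.52. Negative regulators of NF-kB, such as Tnip1 and Tnfaip3, thus lay on both sides of 0.

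Chemokines were higher in 2 of 34 cases, a share of 5.88% beside 3.48% over all genes, and lower in 0. The monocyte attractant Ccl2 stood at 1.15 and 2.31 and the neutrophil attractant Cxcl1 at 1.59 and 1.40, each past the threshold in every spot. Cxcl9, a T cell attractant, was far apart on the arrays at 0.90 and 3.95 and not changed, and Cxcl10 lay near 0 at -0.35 and 0.55. Ccl5 was at -1.38 and 0.31. Chemokine receptors held 1 higher gene of 19, Cxcr6 at 1.68 and 1.09, and 1 lower, Ccr9 at -2.84 and -2.07. The spots of Cxcr6 disagreed, running from -0.25 to 2.43 on the dye-reversed array. Interleukins and their receptors were higher in 3 of 61 cases, or 4.92%. These were Il1rapl2 at 2.64 and 2.24, Il31 at 2.85 and 1.30 and Il18bp, a decoy for interleukin 18, at 1.77 and 1.02. On the dye-reversed array the spots of Il31 ran from -0.86 to 3.47. Il11 was lower at -1.48 and -1.20. Of 38 TNF superfamily genes, lymphotoxin beta (Ltb) alone was changed, lower at -2.58 and -1.46. The share changed was 2.63%, beside 7.0% over all genes. The early cytokines Il6 at 0.01 and 1.52, Il1b at -0.02 and 0.39 and Tnf at -1.54 and -0.11 were not changed, nor was their feedback inhibitor Socs3 at 0.36 and 0.67.

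Acute-phase and metal-binding genes were higher in 6 of 36 cases and lower in 0, while the list's median lay at -0.06. After Lcn2 and Mt2 came the copper carrier ceruloplasmin (Cp) at 2.26 and 3.13 and serum amyloid Saa3 at 3.01 and 1.69. The calgranulins S100a8 at 3.41 and 1.76 and S100a9 at 1.49 and 1.60, calcium-binding proteins abundant in neutrophils, were the other members. S100a11 was also higher, at 1.00 and 2.44, which made 3 of 14 S100 genes. Neutrophil markers other than the calgranulins lay on both sides of 0. Cd177 at 2.27 and 2.49 and Fpr2 at 1.15 and 1.25 were higher, and Ngp at -2.20 and -1.04 was lower. None of these passed the threshold in every spot, and the spots of Cd177 ran from 0.49 to 4.48 on the dye-reversed array. The defining granule genes Mpo at -1.14 and -0.13 and Elane at -0.79 and 0.65, and the surface marker Ly6g at -0.93 and -1.60, were not changed. In all 4 of 21 neutrophil markers were higher, 2 of them in every spot, and 1 was lower. The share higher was 19.0% for this list and 3.48% over all genes. The part of neutrophils in the calgranulin values was not tested. In bulk RNA, more cells of a type and more RNA per cell cannot be told apart.

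Complement genes went both ways, with 3 of 27 higher and 2 lower, all past the threshold in every spot. Clusterin (Clu), which blocks the terminal complex, stood at 2.54 and 2.77. Serping1, the inhibitor of the first component, was at 2.86 and 2.13 and the protease gene C1ra at 1.27 and 1.99. Lower were genes of the lectin route, the recognition protein Mbl1 at -2.47 and -2.17 and its protease Masp2 at -1.23 and -1.03. Serping1 was also the 1 changed gene of 30 serpins.

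Proteasome genes were higher in 8 of 44 cases and lower in 0, with a median of 0.59. Psmd8 led, followed by the core subunits Psma6 at 2.51 and 2.07, Psmb10 at 3.29 and 2.04 and Psmb1 at 1.80 and 1.53. Psmd14, which removes ubiquitin from substrates, was at 2.12 and 1.52. Psme2b at 1.80 and 1.40, Psme4 at 1.32 and 1.98 and Psma1 at 1.37 and 1.03 were the remaining higher members. Psmb10 is the interferon-inducible form of a catalytic subunit, but its oligonucleotides disagreed and its spots ran from 0.01 to 5.64 on the Cy5 array. The other inducible subunits Psmb8 at 0.97 and 0.46 and Psmb9 at 1.45 and 0.49 missed the threshold. Both arrays were above 0 for 26 of the 44 genes and below 0 for 6.

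Of 30 genes of MHC class I and antigen processing, 3 were higher and 1 lower, with a median of 0.50. H2-T9 stood at 3.10 and 2.01 and H2-D1, a classical heavy chain, at 2.01 and 1.03, and Psmb10 is counted here too. H2-M9 was lower at -1.46 and -1.60. Class I heavy chains are close copies of each other, so a value may belong to more than its named gene. None of 9 MHC class II genes was changed.

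Of 44 endothelial identity genes 7 were higher and 1 was lower, while their median of 0.04 lay near that of all genes. Endoglin (Eng), a co-receptor of TGF-beta ligands on endothelium, stood at 4.51 and 3.31, a mean of 3.91 ± 0.85 (SD of 2 arrays). The VEGF receptor Kdr was at 2.55 and 1.87 and Tm4sf1, a membrane protein of endothelial filopodia, at 2.43 and 1.39. The fatty acid receptor Cd36 at 4.28 and 2.65, Gpihbp1, Myct1 at 1.54 and 1.34 and the caveolar coat gene Cav1 at 1.29 and 1.01 were the others. Cav1 was no longer called higher after quantile normalization. Thrombomodulin (Thbd), which turns thrombin to an anticoagulant role, was lower at -2.13 and -1.15. Other members were not changed, among them the junction genes Pecam1 at -0.62 and 0.61 and Cdh5 at -0.35 and -0.49, the angiopoietin receptor Tek at 0.59 and 0.49 and Nos3 at 0.40 and 0.25. The higher genes were thus a few receptors and surface proteins and not the list as a whole. The table gives ratios only, so the presence of endothelial markers in the RNA could not be checked.

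Leukocyte adhesion genes were changed in 1 of 24 cases, Vcam1, the ligand of an integrin of lymphocytes and monocytes, at 1.63 and 1.04. It was no longer called after quantile normalization. The selectins Sele at 0.79 and 0.37 and Selp at 0.52 and 0.92 lay above 0 on both arrays and missed the threshold. Angiogenic and guidance genes were higher in 2 of 69 cases, the hypoxia-inducible factor subunit Hif1a at 2.44 and 2.30 and the inhibitor of differentiation Id3 at 2.26 and 1.23. Lower were the Notch ligand Dll4 at -1.20 and -1.39 and the netrins Ntn3 at -2.95 and -1.23 and Ntn4 at -1.10 and -1.08, none of these past the threshold in every spot. Angpt2, which opposes angiopoietin signalling, was at -1.33 and 0.62. These counts, 1 of 24 and 5 of 69 changed, were close to the 7.0% of all genes.

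Vasoactive genes were lower in 3 of 48 cases (6.25%) and higher in 2 (4.17%), beside 3.52% and 3.48% over all genes. Beside Arg1 and Nos2, the neuronal synthase Nos1 was lower at -1.76 and -1.83, although its spots ran from -3.88 to 0.22 on the dye-reversed array. The adrenomedullin and CGRP receptor Calcrl was higher at 1.53 and 1.06, and Cav1 was the other higher gene. After quantile normalization 0 genes of this list were called higher. Endothelin 1 (Edn1) at 0.28 and 0.26 and the inducible cyclooxygenase Ptgs2 at 0.63 and 1.29 were not changed. Of 37 coagulation genes, 3 were higher and 1, Thbd, was lower, all in every spot. Annexin A2 (Anxa2), which assembles plasmin on the cell surface, stood at 3.10 and 2.40. Entpd1, which breaks down the platelet activator ADP, was at 1.43 and 1.94, and Serping1 was the third. Tissue factor (F3), the starter of clotting, was at -0.65 and -0.50. Anxa3 at 1.17 and 1.41 was with Anxa2 the changed pair among 12 annexins.

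Fatty acid handling held 8 higher and 2 lower genes of 60. Lipoprotein lipase (Lpl), which frees fatty acids from triglyceride, stood at 5.02 and 2.79 beside its anchor Gpihbp1 and the receptor Cd36. The lipid droplet coat Plin2 was at 3.10 and 2.56, and Pdk4, which holds back glucose oxidation, at 1.24 and 1.35. The transcription factor Pparg at 2.04 and 1.25, the mitochondrial carnitine enzyme Cpt2 at 1.69 and 1.06 and the binding protein Fabp5 were the remaining higher members. Within mitochondrial oxidation, Echs1 was lower at -2.05 and -1.64, and the bile acid carrier Fabp6 was lower at -1.21 and -1.04. The muscle form Fabp3 at 0.44 and 0.02 and the endothelial form Fabp4 at 0.95 and -0.09 were not changed.

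Glycolysis genes were higher in 5 of 28 cases and lower in 1, with a median of -0.21. Pfkfb3, which makes the activator of the pathway's committed step, led at 2.92 and 2.57. Pkm at 1.31 and 1.67, Eno3 at 1.56 and 1.19, Pgk1 at 1.11 and 1.08 and Pgam1 are enzymes of its lower part. Ldhb, the lactate dehydrogenase form common in heart, was lower at -2.41 and -1.49, and Gapdh was at 1.68 and 0.14. Of 20 citrate cycle genes, Suclg1 at 1.83 and 1.70 and Dld at 1.27 and 1.05 were higher.

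Of 69 oxidative phosphorylation genes 11 were higher, 9 of them in every spot, and 1 was lower. The higher genes came from several complexes. Complex I gave Ndufb5 at 1.75 and 2.03, Ndufa11 at 1.63 and 2.75, Ndufa2 and Ndufb11, complex III gave Uqcrfs1, and complex IV gave Cox7b at 1.89 and 1.75, Cox7c and the copper chaperone Cox17 at 2.14 and 2.26. The ATP synthase gave Atp5h and Atp5l, and cytochrome c (Cycs) was the last. Ndufv2 was lower at -1.30 and -1.15 with spots from -2.63 to 0.02. A further 6 genes of the list, among them Ndufb8 at 1.16 and -3.79 and Atp5k at 2.07 and -3.47, were 2-fold in opposite directions.

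Cytosolic ribosomal protein genes formed the largest group of higher genes, 16 of 68, 15 of them in every spot, with 1 lower and a median of 0.56. Rps29 was followed by Rpl13a at 6.01 and 3.65, Rpl27 at 5.45 and 3.39 and Rps23 at 3.56 and 3.28. Rpl5 at 3.54 and 2.68, Rpl12 at 3.97 and 2.55, Rps24 at 2.39 and 3.99 and Rps12 at 3.33 and 2.01 were also at least 4-fold on both arrays. Genes of the same particle were far from these values. Rpl32 was lower at -2.66 and -1.05, Rps21 was at -2.33 and -0.99 and Rpl8 at -0.85 and -1.32, and Rpsa and Rps6 stood within 0.06 of 0 on both arrays, where deposited ratios of exactly 1 lie after centring. The spread from -1.86 to 5.59 in the means of genes whose products are made in equal number was wide. Ribosomal protein genes have many processed copies in the mouse genome, and binding of their transcripts was not tested.

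Mitochondrial ribosomal proteins, by contrast, were higher in 4 of 66 cases and lower in 3, and only Mrpl40, lower at -1.86 and -1.50, was past the threshold in every spot. The shares higher and lower were 6.06% and 4.55%, beside 3.48% and 3.52% over all genes. Mrps18a stood at 1.12 and 6.19 and Mrps7 at 1.43 and 4.42, so that the arrays differed by over 2 log2 units for both. Mrpl33 was at 2.52 and 1.49 and its spots ran from -1.69 to 6.73 on the Cy5 array. Translation factors were higher in 6 of 50 cases and lower in 0. The elongation factor Eef1a1, which brings aminoacyl-tRNA to the ribosome, was at 3.46 and 1.89 and its exchange factor Eef1b2 at 1.12 and 1.67. Eif3f, of the initiation complex, was at 1.69 and 1.87 and Eif4g2 at 1.51 and 1.86. None of 19 tRNA synthetases was changed.

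**Figure D3:**
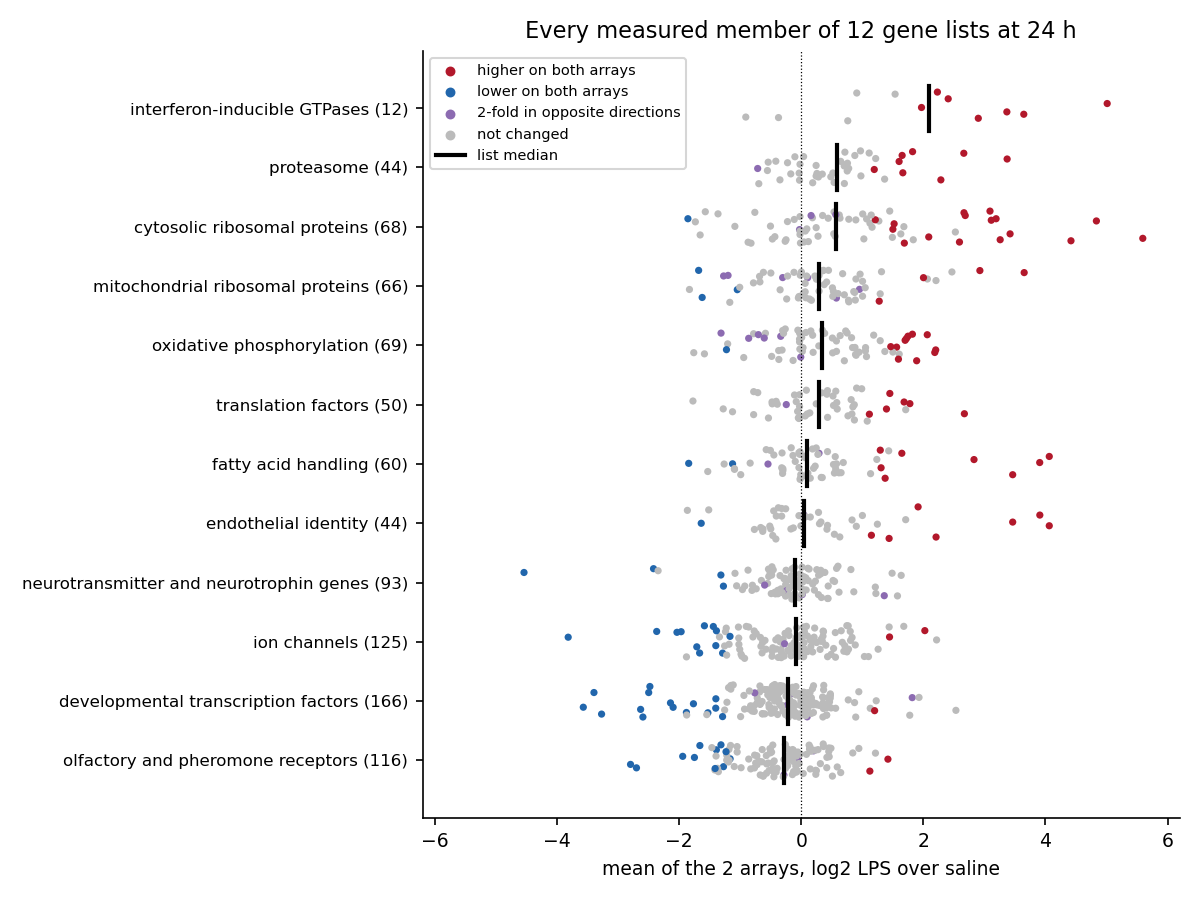
Mean log2 ratio of LPS over saline at 24 h (horizontal axis) of every measured member of 12 gene lists, with the number of members in brackets; each point is a gene, coloured by its call, and the black bar is the list's median. Medians run from 2.10 for interferon-inducible GTPases to -0.28 for olfactory and pheromone receptors, and changed members of cytosolic ribosomal proteins lie almost wholly to the right and those of developmental transcription factors almost wholly to the left.

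Cytoskeletal genes were higher in 6 of 45 cases and lower in 2. Arpc5, of the complex that branches actin filaments, stood at 3.63 and 2.37, the intermediate filament vimentin (Vim) at 2.38 and 1.70, the actin-binding thymosin Tmsb4x at 1.68 and 2.04 and the tubulin Tubb2a at 1.42 and 2.22. Tuba3b at -2.79 and -2.15 and the smooth muscle actin Actg2 at -1.38 and -3.45 were lower. Beta-actin (Actb), which is often used as a reference gene, was at -0.999 and -0.72.

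Of 50 collagens and laminins, the basement membrane chains Col4a1 at 2.13 and 1.76 and Col4a2 at 1.45 and 1.62 were higher. The cartilage collagens Col9a2 at -1.94 and -1.12 and Col2a1 at -1.42 and -1.08 were lower, as was Col18a1 at -2.87 and -1.70, a chain of vascular basement membrane that gives rise to endostatin. All 5 were past the threshold in every spot. The shares were 4% higher and 6% lower, beside 3.48% and 3.52% over all genes. Among 51 metalloproteinases and inhibitors, the matrix-bound inhibitor Timp3 stood at 4.21 and 2.38 and the sheddase Adam9 at 1.87 and 2.20. Adam24 was higher at 1.02 and 1.54, and Adam15 at -1.97 and -1.17 and Adam11 at -1.73 and -1.15 were lower. Shares in the metalloproteinase list were 5.88% higher and 3.92% lower. Itga5, the fibronectin receptor chain, was the changed gene of 23 integrins, lower at -1.26 and -1.35. Of 34 cathepsins and cystatins, Ctsl was higher and Stfa3 lower at -3.61 and -1.48, a share of 2.94% in each direction. The spots of Stfa3 ran from -3.76 to 0.81 on the dye-reversed array. The desmosomal cadherin Dsg2 was lower at -2.22 and -1.25 among 64 junction genes, with spots on both sides of 0.

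Heat shock proteins and chaperones were higher in 3 of 89 cases and lower in 5, or 3 and 2 in every spot. The endoplasmic reticulum chaperones Hspa5 at 2.21 and 1.28 and Hsp90b1 at 1.06 and 1.75 and the cyclophilin Ppic at 2.95 and 1.95 were higher. Lower were 4 genes of the J-domain family, Dnajb1 at -4.07 and -2.14, Dnajb12 at -1.69 and -2.20, Dnajc7 and Dnajc28, and the co-chaperone Bag3. In the list of endoplasmic reticulum stress and secretion, 4 of 41 were higher, with Hyou1 at 1.25 and 1.09 and the translocon subunit Sec61g at 2.08 and 1.10. Sel1l, of the degradation machinery, at -2.57 and -1.59 and the signal peptidase subunit Spcs2 at -1.20 and -1.21 were lower. Antioxidant genes were higher in 4 of 64 cases, Mt2, Glrx2 at 1.42 and 1.58, Prdx1 at 2.06 and 1.40 and Prdx2 at 1.32 and 1.07. Lower were Gstm2 at -2.06 and -1.51, Gsta2 at -1.04 and -1.05 and Slc7a11, which imports cystine, at -1.10 and -1.81. Shares in the antioxidant list were 6.25% higher and 4.69% lower.

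Glucocorticoid and circadian targets were higher in 4 of 27 cases and lower in 0, with a median of 0.03. Tsc22d3, an anti-inflammatory target of the glucocorticoid receptor, stood at 2.32 and 2.25. The kinase gene Sgk1 was at 3.60 and 2.19, Pdk4 belonged here too and the cell cycle inhibitor Cdkn1a was at 1.41 and 2.66, from 2 oligonucleotides of which 1 was past the threshold. Immediate-early and stress regulators were higher in 4 of 50 cases, Sgk1, Ier3 at 5.35 and 1.83, Gadd45g at 2.34 and 1.28 and the flow-responsive factor Klf4 at 1.96 and 1.06. Klf3 at -2.48 and -1.93, Btg2 at -1.45 and -1.12 and Nfil3 at -1.09 and -2.98 were lower. The spots of Klf3 ran from -5.27 to 0.31 on the Cy5 array. Fos at 2.16 and 0.11 and Jun at -0.12 and 0.75 were not changed.

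Of 45 apoptosis and inflammasome genes, 4 were higher and 1 lower. The caspase gene Casp4, whose product binds LPS in the cytosol, stood at 2.60 and 1.94, and Casp1, which matures interleukin 1 beta, at 1.53 and 1.30. Casp12 at 1.01 and 1.18 and Bad at 1.23 and 1.24, a pro-apoptotic BCL2 relative, were nearer to the threshold. Gsdma, of the pore-forming gasdermins, was lower at -3.02 and -1.23. Cell cycle and replication genes were changed in 5 of 129 cases, below the share of all genes. Among them were the mitotic kinesin Kif11 at 1.62 and 2.33 and the transport kinesin Kif5c at -2.95 and -2.24. The oligonucleotides of Kif5c disagreed, with 1 at 0.51 and -0.12 and the other at -6.41 and -4.36.

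Of 188 solute carriers, 3 were higher and 10 lower, but 2 in each direction were so in every spot. The shares were 1.60% higher and 5.32% lower, beside 3.48% and 3.52% over all genes. The mitochondrial ADP and ATP exchanger Slc25a4 stood at 2.91 and 1.92, the zinc transporter Slc39a7 at 2.00 and 1.06 and the amino acid transporter Slc1a4 at 1.04 and 1.76. Slc46a1, the folate transporter, at -1.85 and -1.27 and Slc22a17 at -1.98 and -1.12 were lower in every spot. Slc16a10 at -2.62 and -2.02 and the zinc transporter Slc30a3 at -1.60 and -1.86 were lower on the mean of their spots. The efflux pump Abcg2 at 2.37 and 2.01 and Abcc6 at 1.19 and 1.98 were the changed genes of 33 ABC transporters. The spots of Abcc6 disagreed, running from -1.21 to 5.16 on the dye-reversed array.

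Genes of ubiquitin transfer and removal were higher in 5 of 166 cases and lower in 5. These shares of 3.01% each were near the 3.48% and 3.52% of all genes. Higher were Fbxo9 at 1.502 and 6.23, Uchl5 at 1.40 and 2.72 and Rnf186 at 1.37 and 2.87, among others. Fbxo15 at -1.97 and -1.63, Cul4b at -1.27 and -2.11 and Rnf220 at -1.25 and -1.08 were among the lower. Uchl5, Cul4b and Rnf220 did not pass in every spot, and Uchl5 ran from -0.31 to 5.75 on the dye-reversed array. Splicing and RNA-binding genes were higher in 6 of 86 cases and lower in 2, with Snrpe at 1.95 and 1.39 and Hnrnpc at -2.46 and -2.14 as the clearest in each direction. The replacement histone genes H3f3b at 1.83 and 1.81 and H3f3a at 1.71 and 1.34, which encode the same protein, were both higher among 8 histones. Scarb2, a lysosomal membrane receptor, was higher at 1.41 and 1.65 among 48 autophagy and lysosome genes. Zinc finger genes were changed in 4 of 131 cases, Zbtb4 at 1.68 and 1.30 and Zfp37 at -1.76 and -2.18 being those past the threshold in every spot. Their share changed, 3.05%, was below the 7.0% of all genes. TGF-beta superfamily genes held Eng and Fstl1, higher, and Nodal, an embryonic signal, lower at -5.61 and -2.07. No sterol synthesis gene of 21 and no Rab GTPase of 41 was changed.

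Several families of genes known mainly from the embryo, nerve and sensory tissue held more lower than higher genes. Over all genes 3.52% were lower and 3.48% higher. Developmental transcription factors were lower in 15 of 166 cases, 11 of them in every spot, and higher in 1, with a median of -0.22. Foxd3, a neural crest factor, stood at -4.43 and -2.36, Lmx1b at -3.03 and -2.24 and Hoxa6 at -2.41 and -2.59. Hoxa6 was not past the threshold in every spot, with spots from -4.59 to -0.23 on the Cy5 array. Foxo1, which limits endothelial growth and is active in adult endothelium, was among them at -1.58 and -1.47. Foxj1, a factor of ciliated cells, was higher at 1.10 and 1.30. Ion channels were lower in 12 of 125 cases, 6 of them in every spot, and higher in 2. After Scn2a came the potassium channels Kcnk16 at -2.18 and -2.55, Kcnd1 at -2.14 and -1.79 and Kcna2 at -1.60 and -1.58. Clca3a1 at 1.28 and 2.77 and the calcium channel Cacna1g at 1.06 and 1.83 were higher. On the dye-reversed array the spots of Cacna1g ran from -0.71 to 4.38.

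Neurotransmitter and neurotrophin genes were lower in 4 of 93 cases and higher in 0. Their lower share of 4.30% was near the 3.52% of all genes. The glutamate receptor Grik5 stood at -3.24 and -1.60 after Ntrk3. Chrnb1 at -1.54 and -1.10 and Gabrb1 at -1.48 and -1.07 were the others. Olfactory and pheromone receptors, which sense odours, were lower in 11 of 116 cases and higher in 2, with a median of -0.28 that came from the dye-reversed array, at -0.53, and not from the Cy5 array, at 0.01. Of the lower ones 6 were past the threshold in every spot, such as Olfr544 at -2.07 and -3.33 and Olfr661 at -1.97 and -1.92. Keratins were lower in 4 of 62 cases (6.45%), with Krtap5-1 at -2.29 and -1.93, Krt15 at -1.40 and -2.15 and Krt35 at -1.37 and -1.41 in every spot. Whether these lower values come from weakly lit spots was not tested, since the table holds no intensities.

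Wnt pathway genes were lower in 4 of 46 cases and higher in 0, with a median of -0.31. The co-receptor Lrp5 stood at -3.34 and -1.04, the adaptor Dvl2 at -2.18 and -1.24 and the transcription factor Tcf7l2 at -1.43 and -1.39, and the secreted Dkk3 was at -2.56 and -1.38 with spots from -5.997 to 0.88 on the Cy5 array. MAP kinases and phosphatases were lower in 3 of 55 cases, Araf, Map3k20 at -1.47 and -1.90 and Mapk8ip2 at -1.10 and -1.61, and higher in 0. Their lower share was 5.45%, beside 3.52% over all genes. Only Araf was past the threshold in every spot, and the spots of Map3k20 ran from -4.35 to 1.41 on the Cy5 array. Of all 70 lists, 41 held more higher than lower genes, 18 more lower and 11 as many of each, 6 of these with no changed gene. The lists covered 303 of the 780 changed genes.

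**Figure D4:**
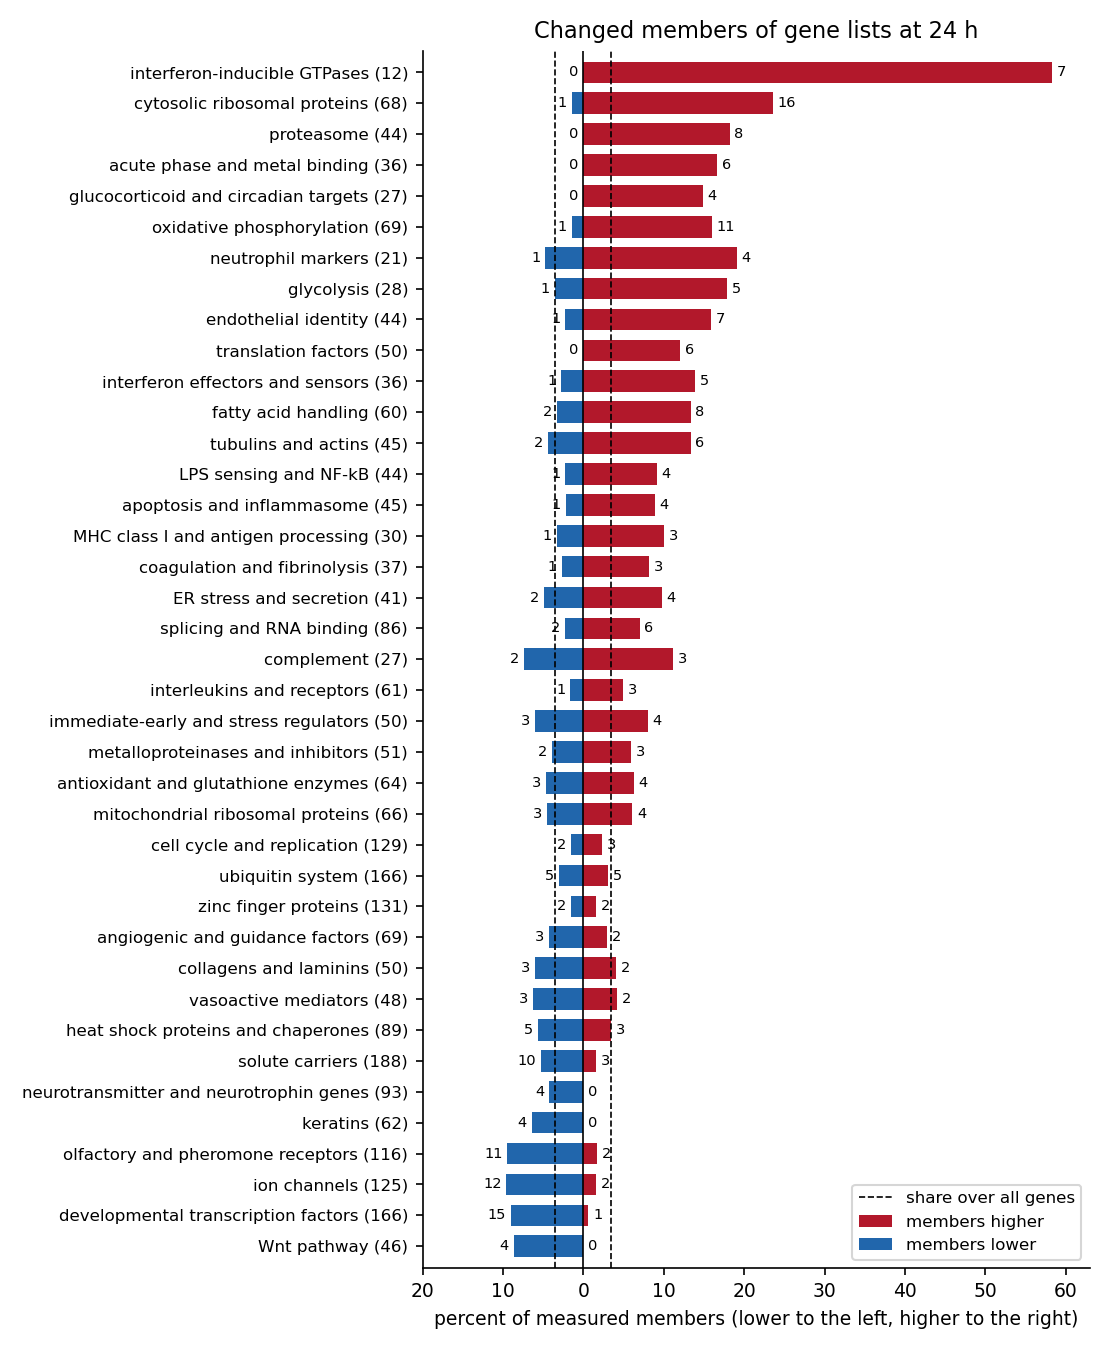
Percent of measured members higher (bars to the right) and lower (bars to the left) at 24 h in the gene lists shown, each with at least 4 changed genes; the number of measured members is in brackets, counts stand beside the bars, and dashed lines mark the shares over all genes, 3.48% and 3.52%. The GTPases reach 58.3% higher, and the lists at the bottom hold few or no higher genes.

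Markers of other cells of the heart and blood were mostly unchanged, with list medians from -0.23 for monocyte and macrophage markers to 0.55 for erythrocyte markers. The share changed was 23.8% for neutrophil, 23.1% for erythrocyte and 12% for fibroblast markers, above the 7.0% of all genes. In the other marker lists it ran from 0% to the 7.14% of lymphocyte markers. Of 33 cardiomyocyte markers only Ryr2 was changed, lower at -1.32 and -1.47 with spots from -3.91 to 0.36, and the defining myosin Myh6 was at 0.75 and 0.05. Of 28 monocyte and macrophage markers Coro1a was higher at 1.53 and 3.94, while Csf1r at 0.02 and -1.41, Cd68 at -0.21 and -0.75 and the pan-leukocyte Ptprc at -0.72 and -0.51 were not changed. Lymphocyte markers held Blk at 2.18 and 2.10 and Cd5 at -2.70 and -1.29 among 28. Of 13 erythrocyte markers Klf1 was higher at 1.84 and 2.18. Car1 at -1.82 and -1.67 and Rhag at -2.60 and -1.18 were lower, with the globin Hba-a1 at 0.00 and 1.44. On the dye-reversed array the spots of Blk ran from 0.09 to 4.11 and those of Klf1 from 0.37 to 4.00. Fibroblast markers were higher in 3 of 25 cases, Vim, Fstl1 at 1.18 and 1.47 and Mgp at 2.45 and 1.16, and the collagens Col1a1 at -3.84 and -0.69 and Col3a1 at -1.05 and 0.20 were not. Actg2 was the changed gene of 19 smooth muscle and pericyte markers, and 0 of 14 platelet and 12 mast cell markers were changed. The amount of RNA from these cells cannot be read from ratios, and its part in the other values was not tested.

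Genes with several oligonucleotides gave a check of the values within an array. Of the 780 changed genes 33 had more than 1 oligonucleotide, and in 3 of these all oligonucleotides passed the threshold on both arrays. These were the cytokine receptor Crlf2 at 2.43 and 1.84, and, named after their values were seen, Eomes and Ptprcap, both lower. For Ifi202b, Saa3, Sdcbp and H2-D1 only 1 oligonucleotide passed it. The same held for Kif5c, Dnajc7, Chrnb1, Cdkn1a, Psmb10, Psme2b, Ntn3, Ryr2 and Slc30a3, named above. Near the threshold, Klhl1 at -1.24 and -1.0001, Ivns1abp at -1.0002 and -2.54 and Cplx1 at -1.65 and -1.0003 lay just inside, and Kif17 at -3.62 and -0.999, Nup62 at 0.9989 and 1.69 and Zfp617 at 0.9985 and 1.84 just outside. The genes furthest apart on the arrays were Cstad at -6.06 and 5.03, Iqcd at -3.78 and 5.81, Snrnp48 at -3.76 and 4.43, Irx2 at 3.88 and -3.69 and Efcc1 at -3.59 and 4.51.

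The 24 h values were set beside those of the 4 h arrays, which were read in the same way. The labels do not say whether both times used the same saline RNA. At 4 h 362 genes (3.25%) were changed, 251 higher (2.25%) and 111 lower (0.997%), compared with 388 higher and 392 lower at 24 h. Of the 780 genes changed at 24 h, 704 were not changed at 4 h, 57 were changed in the same direction and 19 in the opposite one. A further 158 genes (1.42%) were 2-fold in opposite directions at 4 h. The SD over genes was 1.20 and 0.73 on the 4 h arrays, and 1.17 and 1.14 on the 24 h arrays. The fixed threshold was therefore a stricter cut on the dye-reversed 4 h array than on the other arrays. The number of genes changed at 24 h and not at 4 h became 354 when all 4 arrays were brought to 1 scale. It became 368 when every spot had to pass. The 57 make up 7.31% of the 24 h genes and 15.7% of the 4 h genes. Among the 54 higher at both times, Lcn2 was at 5.09 and 3.82 at 4 h, Gbp2 at 5.19 and 4.14, Ctsl at 2.18 and 1.99 and Rhoc at 2.41 and 1.85, all below their 24 h values on both arrays. For other genes the 4 h values were the larger. Ccl2 had a mean of 4.05 at 4 h and 1.73 at 24 h, Cxcl1 of 3.84 and 1.49, Ifit2 of 3.92 and 1.26, Tlr2 of 3.86 and 1.73 and Casp4 of 3.91 and 2.27. Over all genes the share of higher calls was 2.25% at 4 h and 3.48% at 24 h, and that of lower calls 0.997% and 3.52%, so list counts at the later time are read against a larger background. At 4 h and 24 h, interferon effectors were higher in 13 and 5 of 36 cases, GTPases in 8 and 7 of 12 and proteasome genes in 5 and 8 of 44. Cytosolic ribosomal genes were higher in 12 and 16 of 68 cases, oxidative phosphorylation genes in 2 and 11 of 69 and fatty acid genes in 2 and 8 of 60. Developmental transcription factors were lower in 3 and 15 of 166 cases, ion channels in 0 and 12 of 125 and olfactory and pheromone receptors in 0 and 11 of 116. The difference between the times was not tested.

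**Figure D5:**
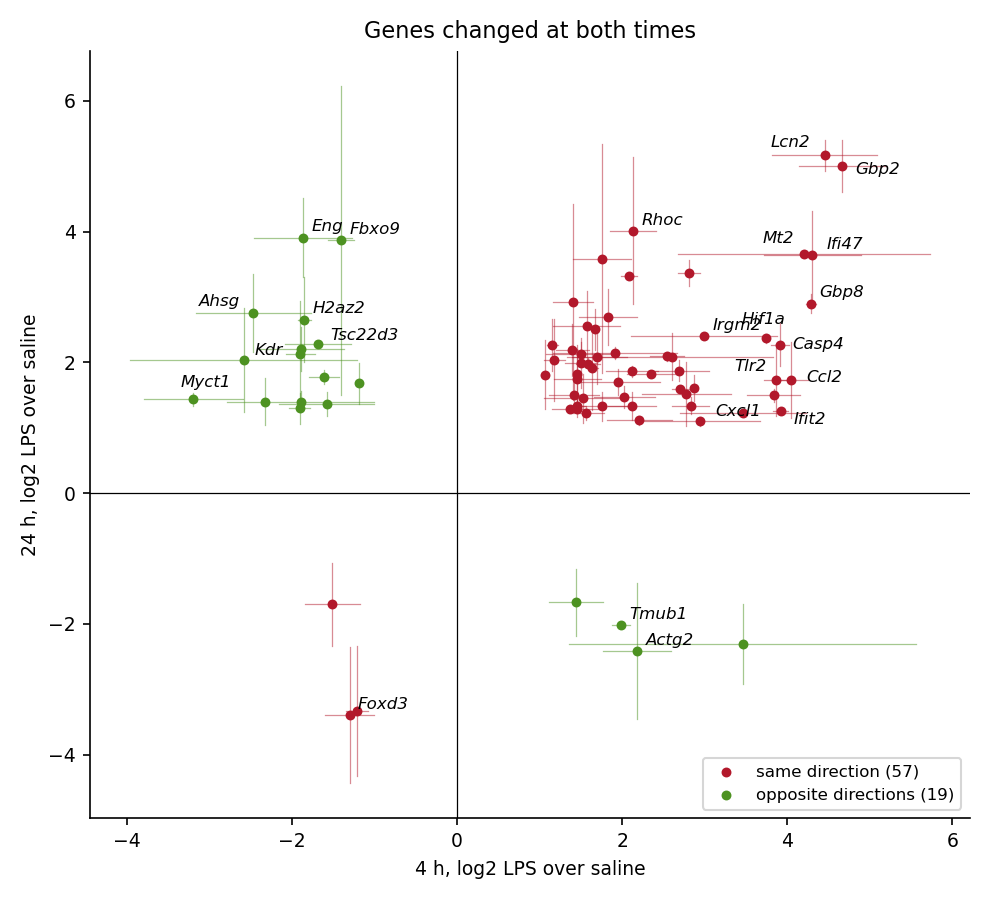
Mean log2 ratio of LPS over saline at 4 h (horizontal axis) and 24 h (vertical axis) for every gene changed at both times; lines run from one array of a time to the other. The 57 genes in the same direction lie almost wholly in the upper right, and 15 genes such as Eng, Kdr and Tsc22d3 were lower at 4 h and higher at 24 h.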

How the data were processed

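Ratios of the 2 arrays at 24 h were used, with the 4 h arrays for comparison. The values are log2 ratios per spot as deposited by the authors in 1 table. Background correction and normalization are not stated there, and 12.2% and 10.2% of spots stood at a ratio of exactly 1. Of 32448 spots, 24344 had 1 gene symbol in the platform annotation, 98 had several and 8006 were not listed. The sign of the dye-reversed array was turned, the 2 spots of an oligonucleotide and then the oligonucleotides of a symbol were averaged, and the median of all 11138 genes was subtracted from each array. Both arrays at least 1 log2 unit from 0 on the same side made a gene changed. Where nothing says that samples came from separate animals, their spread may be technical, so no p-value is given for a gene.

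Named genes were the 15 highest and 15 lowest with every spot past the threshold, up to 4 in each direction per list, a set of well-known response genes, the 3 nearest on each side of the threshold, the 5 furthest apart on the arrays, up to 5 changed genes with the most oligonucleotides, and genes changed oppositely at 4 h. Further members of a list were named after their values were seen. The result of 1 gene list is not reported here. The members and lists were chosen with earlier results of these data known. Promoters came from RefSeq (8805 of 11138 genes matched). Python 3.11.15, numpy 2.4.6, pandas 2.3.3, R 4.3.3 and limma 3.58.1 were used. The limma fit, an alternative, was tested on simulated data. The simulation drew each array independently, so it does not show how the fit does where arrays share RNA.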

Additional observations from a re-analysis of the deposited data

Results flagged for a closer look

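Of the genes named, 12 were changed at both times in opposite directions, and the difference between the times was not tested. Those lower at 4 h had these means at 24 h. Eng stood at 3.91, Kdr at 2.21, Calcrl at 1.30 and Tsc22d3 at 2.28. Fbxo9 was at 3.87, Slc1a4 at 1.40, Ahsg, a liver plasma protein gene, at 2.76 and the kinase gene Csnk1g2 at 1.40. H2az2 was at 2.65 and Krtcap2 at 1.68. Actg2 at -2.42 and Tmub1 at -2.02 were higher at 4 h and lower at 24 h.

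Oligonucleotides with no gene symbol, which entered no gene's value, held 204 changed ones among 4003 (5.10%), 65 higher and 139 lower. With every spot required there were 13 higher and 50 lower.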

How the results depend on the processing

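The main rule gave 780 changed genes at 24 h, 388 higher and 392 lower. Keeping oligonucleotides with agreeing spots gave 509, 258 and 251. Requiring every spot to pass gave 406, 208 and 198, and a threshold of 1.5 log2 units gave 270, 136 and 134. Calling on the mean of the arrays gave 2291, 1093 and 1198. Without turning the dye-reversed array there were 411, 190 and 221. With 1 array left out, the other alone gave 3239 to 3408 changed genes, 1444 to 1740 higher and 1499 to 1964 lower, because agreement of the arrays no longer counted. The limma fit that took the arrays as separate samples gave 0 changed, 0 higher and 0 lower genes at an adjusted p-value of 0.05. In this fit 1126 genes had an unadjusted p under 0.05 (558 higher and 568 lower), where 0.05 of all genes is 556.9. The count of genes changed at 24 h and not at 4 h, 704, became 354 with scale normalization over all 4 arrays and 368 with every spot required; the cause of the first was not tested. Counts stayed within 1.5 times of the main ones with no centring (760), scale (772) or quantile normalization (791), without ratios of exactly 1 (851) and for genes with 1 oligonucleotide (747). The balance of higher and lower genes turned to 404 against 356 with no centring and stood at 376 against 371 for genes with 1 oligonucleotide. The count of changed members left the range of 1.5 times in 37 of 70 lists with every spot required. Quantile normalization did so in 9 lists and scale normalization in 2. Between lists, leukocyte adhesion turned from 1 higher and 0 lower to 0 and 1 under quantile normalization, and purine and pyrimidine enzymes from 1 and 0 to 1 and 2. Vasoactive mediators went from 2 and 3 to 0 and 3 under it, and fatty acid handling from 8 and 2 to 6 and 2. With every spot required, angiogenic and guidance factors turned from 2 and 3 to 2 and 0, mitochondrial ribosomal proteins from 4 and 3 to 0 and 1, and heat shock proteins and chaperones from 3 and 5 to 3 and 2. No paired analysis was possible because the labels number no replicates and the arrays of a time are 1 replicate.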
